A study of Mus musculus with 6 samples.

Results

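The members described here are the 39 protein-coding Hox genes of the mouse, 11 in HoxA, 10 in HoxB, 9 in HoxC and 9 in HoxD, among the 21951 protein-coding genes of the GENCODE vM21 annotation. They were taken by symbol, a choice made with earlier results of these data known. With them was taken every ChIP-seq peak inside the 4 clusters or within 50 kb of either end. ChIP-seq, which locates the sites where a transcription factor (TF) sits on chromatin, was done with an antibody against FLAG on pooled facial tissue of CD1 embryos at embryonic day 11.5 (E11.5); the general text of the series gives an earlier day. The 3 groups were Gli3 in the whole face and Gli3 in the mandibular prominence (MNP), both from Gli3 3XFlagbio embryos, and Hand2 in the MNP, from embryos labelled Hand2 3XFlagbio, each with 2 replicates. The paper calls the Hand2 allele 3xFlag, without the bio part. The tag sits in the endogenous gene in all of them, and the mock ChIP was made on wild-type tissue. The peaks found in both replicates form 1 list a group: 5752 for Gli3 whole face, 5427 for Gli3 MNP and 59583 for Hand2 MNP. A list gives positions and no heights, so there is no error between embryos, and the read depth behind a peak is unknown.

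Hox genes encode homeodomain TFs that give cells their position along the body axis. In each cluster the genes run in the order of their expression domains, from group 1 at the 3′ end, used in the hindbrain, to group 13 at the 5′ end, used in the tail, the distal limb and the genitalia. Neural crest of the jaw and the rest of the face is known as Hox-negative, and silent Hox clusters are a classic target of Polycomb repression. Whether Hox genes were silent in these samples cannot be checked against markers, since the lists hold peak positions and no expression. Gli3 carries the Hedgehog signal to DNA through the Gli-binding motif (GBM), whose canonical letters are GACCACCC and whose divergent form is GACCTCCC. Hand2, a bHLH factor of the medial MNP, binds E-boxes (CANNTG), of which CAGATG is the form counted here.

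Few peaks lay in the Hox clusters, though Gli3 peaks are sparse in the whole genome. Only Hoxa7 and Hoxd13 had a peak midpoint within 1 kb of a start site (TSS) of their protein-coding transcripts, Hoxa7 in the Gli3 whole face list and Hoxd13 in the Hand2 MNP list. Over all protein-coding genes, 6.15% had such a peak for Gli3 whole face, 17% for Gli3 MNP and 33.7% for Hand2 MNP. The 4 windows, which span 892 kb with their flanks, held 2 Gli3 whole face peaks, 1 Gli3 MNP peak and 12 Hand2 MNP peaks. Per 100 kb these are 0.224, 0.112 and 1.35, compared to 0.217, 0.205 and 2.25 in the genome. The Gli3 counts are too small to be told from the genome-wide density. Peak sequences are given first, from the plus strand of GRCm38 (mm10), since the counts below rest on them. Capitals mark GACCNCCC or CAGATG, where N is any base.

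The Gli3 peaks come first, because they are all the Gli3 peaks in the windows. A whole face peak and an MNP peak overlapped at chr6:52115876-52116078 and chr6:52115950-52116233, between genes on the 3′ side of HoxA, and a further whole face peak lay at chr6:52217454-52217674, at Hoxa7.
Gli3 whole face, 3′ of HoxA: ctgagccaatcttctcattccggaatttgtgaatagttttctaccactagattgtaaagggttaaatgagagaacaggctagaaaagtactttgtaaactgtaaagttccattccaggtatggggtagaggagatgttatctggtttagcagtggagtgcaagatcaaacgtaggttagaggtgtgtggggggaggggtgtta
Gli3 MNP, 3′ of HoxA: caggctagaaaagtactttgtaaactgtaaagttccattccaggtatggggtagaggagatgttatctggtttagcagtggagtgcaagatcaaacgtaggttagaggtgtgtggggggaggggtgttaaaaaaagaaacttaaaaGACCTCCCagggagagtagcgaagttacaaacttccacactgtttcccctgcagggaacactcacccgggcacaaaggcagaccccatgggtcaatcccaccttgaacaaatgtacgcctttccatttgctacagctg
Gli3 whole face, Hoxa7: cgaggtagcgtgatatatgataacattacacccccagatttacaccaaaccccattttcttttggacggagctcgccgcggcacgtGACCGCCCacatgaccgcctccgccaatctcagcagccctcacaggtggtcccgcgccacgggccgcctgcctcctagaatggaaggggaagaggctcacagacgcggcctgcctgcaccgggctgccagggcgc

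Of the Hand2 MNP peaks, 3 are shown: the one at Hoxd13 (chr2:74667621-74667858), the middle 300 bases of the single one between the outer genes of a cluster (chr15:102999380-102999679) and the middle 300 bases of one with CAGATG (chr11:96413585-96413884).
Hand2 MNP, Hoxd13: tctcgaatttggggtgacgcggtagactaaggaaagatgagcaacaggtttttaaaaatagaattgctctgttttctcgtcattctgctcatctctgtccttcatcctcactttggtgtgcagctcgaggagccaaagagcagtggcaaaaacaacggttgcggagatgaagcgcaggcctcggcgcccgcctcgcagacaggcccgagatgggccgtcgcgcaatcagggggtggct
Hand2 MNP, inside HoxC: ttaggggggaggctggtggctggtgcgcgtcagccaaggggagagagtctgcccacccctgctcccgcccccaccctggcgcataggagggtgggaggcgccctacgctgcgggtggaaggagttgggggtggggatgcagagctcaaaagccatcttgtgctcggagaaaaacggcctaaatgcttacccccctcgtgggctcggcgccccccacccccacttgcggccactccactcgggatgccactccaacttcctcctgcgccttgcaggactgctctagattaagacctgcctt
Hand2 MNP, 3′ of HoxB: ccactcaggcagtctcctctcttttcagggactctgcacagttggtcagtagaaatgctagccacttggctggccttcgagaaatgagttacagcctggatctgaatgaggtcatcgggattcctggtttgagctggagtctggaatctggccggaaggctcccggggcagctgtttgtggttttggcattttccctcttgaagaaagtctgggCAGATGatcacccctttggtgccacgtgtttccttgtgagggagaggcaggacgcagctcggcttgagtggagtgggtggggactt

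**Figure D1:**
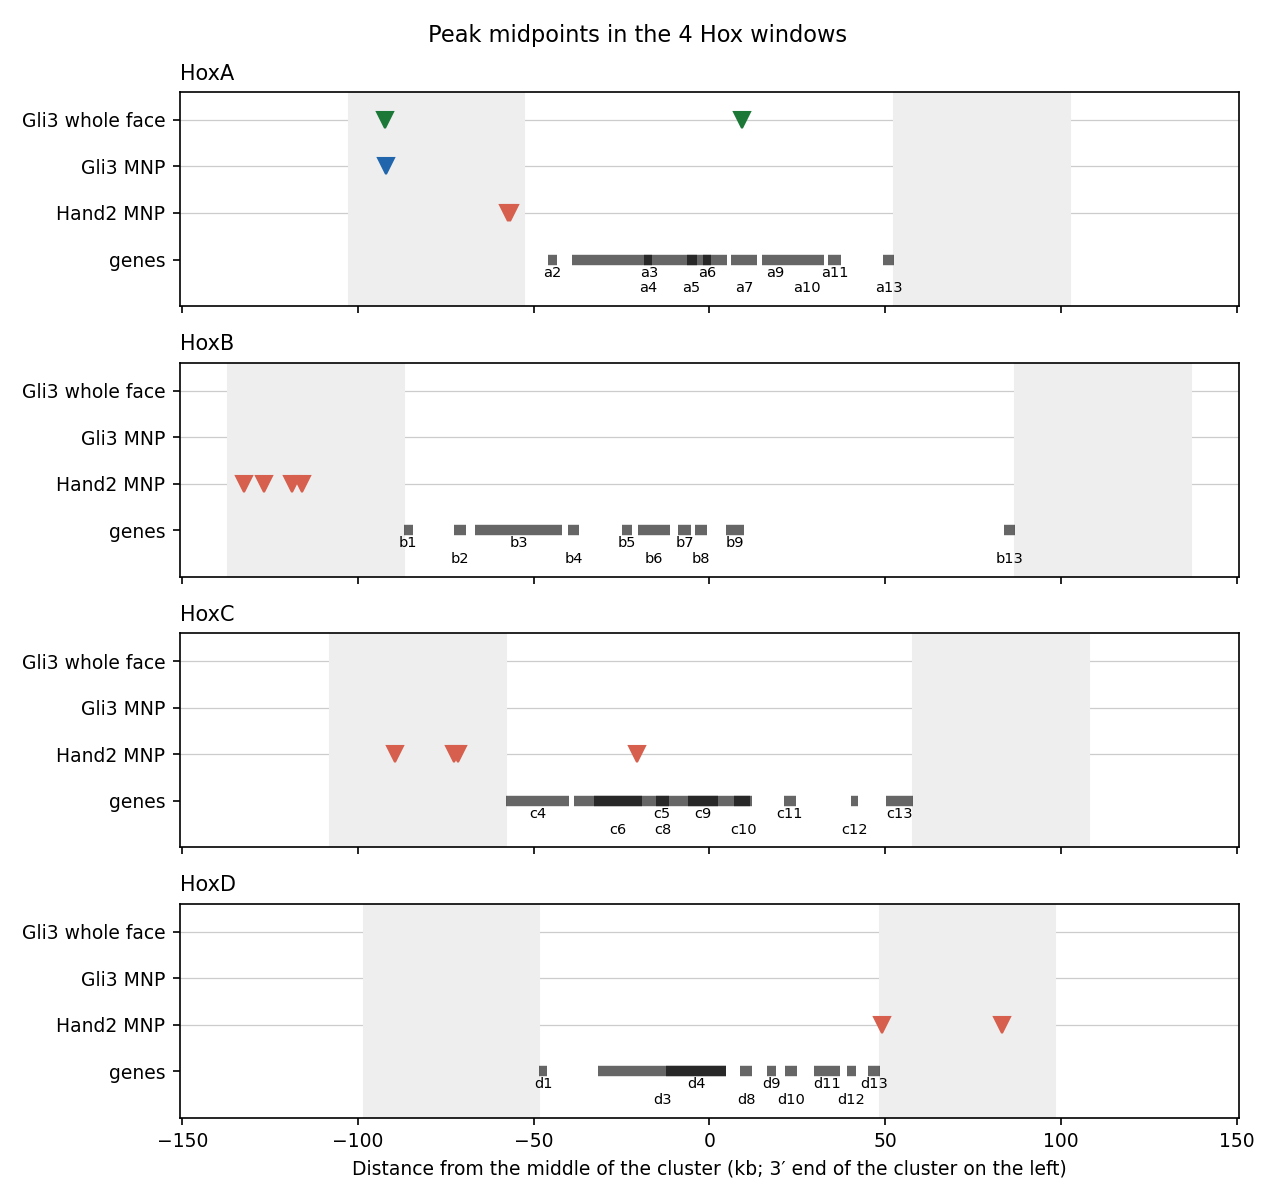
Peak midpoints (triangles) and gene records (dark bars, with paralog numbers, for 38 genes) in the HoxA, HoxB, HoxC and HoxD windows. The horizontal axis is the distance in kb from the middle of the cluster, with the 3′ end on the left, and grey marks the 50 kb flanks. Of the 12 Hand2 MNP peaks, 11 sit in the flanks, and the 3 Gli3 peaks are all in HoxA.

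The pair of Gli3 peaks 3′ of HoxA shared 129 bp. The MNP peak held a GACCTCCC that starts at its base 147, past the stretch common to both peaks, and the whole face peak held no GACCNCCC. Both names in the MNP entry and all 4 comparisons in the whole face entry (mock and input, for each replicate) were present, as in every entry of their lists.

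The whole face peak at Hoxa7, a gene that patterns the trunk, was 221 bp wide with its midpoint 59 bp upstream of a Hoxa7 TSS. It lay in an intron of the gene record, because a longer Hoxa7 transcript starts further 5′. When only the outermost 5′ end of each gene was counted, the number of Hox genes with a whole face peak was 0. The peak had a GC content of 62.9% and an observed to expected CpG ratio of 0.839. It held no GACCACCC and no GACCTCCC, but 1 GACCGCCC, whose first base is the last base of a CACGTG E-box. GACCGCCC was present in 1.62% of all Gli3 whole face peaks and in 4.84% of those within 1 kb of a coding TSS. It was chosen for counting after the sequence was seen.

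The Hand2 MNP peak at Hoxd13, a gene of the digits and genitalia, was 238 bp wide and centred 570 bp upstream of the TSS. Its GC content was 54.2% and its CpG ratio 0.925. It held no CANNTG, which 92.3% of all Hand2 MNP peaks and 83.8% of those within 1 kb of a coding TSS held. Hand2 MNP peaks near a coding TSS are wider (median 503 bp). In their middle 200 bp the share was 52.9%, so lacking a CANNTG is not rare at such a length. The Hand2 MNP peak between the outer genes of HoxC lay in introns of the overlapping Hoxc5 and Hoxc6 records, 8923 bp downstream of the Hoxc8 TSS, the nearest start of a protein-coding Hox transcript. Hoxc6 transcripts not annotated as protein-coding start closer by, the nearest just inside 1 kb. With the starts of all transcripts counted, 2 of 39 Hox genes (Hoxc6 and Hoxd13) had a Hand2 MNP promoter peak, compared to 35.5% of all protein-coding genes. Its GC content was 64.9%, and it held 2 CANNTG and no CAGATG.

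By protein-coding transcripts, no other Hox gene had a promoter peak in any list. The 37 genes without one included all 10 genes of HoxB (Hoxb1 to Hoxb9 and Hoxb13), all 9 of HoxC (Hoxc4 to Hoxc6 and Hoxc8 to Hoxc13) and Hoxd1, Hoxd3, Hoxd4 and Hoxd8 to Hoxd12 in HoxD. In HoxA they included Hoxa2, Hoxa3 and Hoxa13. Neighbouring Hox genes share a region, so the 39 promoters are not independent of one another, and the intervals that follow cover counting error only.

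For Gli3 whole face, 1 of 39 Hox genes had a promoter peak (2.56%, 95% Wilson interval 0.454 to 13.2), compared to 6.15% of all protein-coding genes. For Gli3 MNP it was 0 of 39 (0%, interval 0 to 8.97), compared to 17% of all protein-coding genes. For Hand2 MNP it was 1 of 39 (2.56%, interval 0.454 to 13.2), compared to 33.7% of all protein-coding genes. The Gli3 whole face share thus lay near that of all genes, whose value is inside the Hox interval, while the other lists' genome-wide values lay above the Hox interval.

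Binding near promoters can vary with CpG content, so genes of like base composition were compared. A promoter was called CpG-rich when 500 bp centred on a TSS had a GC content of at least 55% and a CpG ratio of at least 0.75, which 17 of 39 Hox genes met (43.6%) and 40.3% of all genes. Among these 17, a promoter peak was found at 1 in the Gli3 whole face list (5.88%, interval 1.05 to 27.0), compared to 10.3% of all CpG-rich genes. It was found at 0 of 17 for Gli3 MNP (interval 0 to 18.4), compared to 32.8%, and at 1 of 17 for Hand2 MNP (5.88%, interval 1.05 to 27.0), compared to 53.5%. All genes without a CpG-rich promoter had peaks at 3.37% (Gli3 whole face), 6.39% (Gli3 MNP) and 20.4% (Hand2 MNP).

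The Dlx genes, homeodomain TFs that pattern the jaw along its proximal to distal axis, are paired in small clusters of their own. Hox genes had Gli3 MNP promoter peaks at 0 of 39, compared to 3 of 6 Dlx genes (50%, interval 18.8 to 81.2), and Hand2 MNP promoter peaks at 1 of 39, compared to 4 of 6 (66.7%, interval 30.0 to 90.3). Neither interval overlapped that of the Hox genes in the same list. Paired Dlx genes are not independent of one another either, and the intervals cover counting error only, so this is not a test. The lists were also chosen with earlier results of these data known. The Gli3 MNP peak was 17 bp from a TSS of Dlx1, 42 bp from Dlx6 and 919 bp from Dlx5. The Hand2 MNP peak was 30 bp from Dlx5, 121 bp from Dlx1, 155 bp from Dlx6 and 207 bp from Dlx2. Dlx3 and Dlx4 had no promoter peak. In the Gli3 whole face list 0 of 6 Dlx genes had one, with Dlx1 closest at 2132 bp, and the interval (0 to 39.03%) overlapped that of the Hox genes.

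Other developmental regulators fell on both sides. Of 36 regulators of facial mesenchyme and jaw, 8 had a Gli3 whole face promoter peak (22.2%, interval 11.7 to 38.1, which overlaps that of the Hox genes), 9 a Gli3 MNP peak (25%, interval 13.8 to 41.1) and 22 a Hand2 MNP peak (61.1%, interval 44.9 to 75.2). The Gli3 MNP interval held both the 17% of all genes and the 32.8% of CpG-rich genes, and the Hand2 MNP interval held the 53.5% of CpG-rich genes. Among the 14 with a Gli3 peak, the first by name were Alx4 (MNP peak at 853 bp), Gsc (whole face peak at 237 bp), Lhx8 (MNP, 607 bp) and Nr2f1 (MNP, 643 bp), all TFs of the facial mesenchyme. Of 39 regulators of the trunk, neural tube and other organs, none had a Gli3 promoter peak in either list (0 of 39, interval 0 to 8.97), compared to 1 of 39 Hox genes. Hand2 MNP peaks were at 5 of these 39 (12.8%, interval 5.60 to 26.7), namely En2, Meox1, Nkx2-5, Onecut1 and Tbx5, whose names were looked up after the count was seen. That interval overlapped the Hox interval. Low promoter counts were therefore found outside the Hox clusters too.

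Genes whose products act with or on Hox genes differed by list in their promoter peaks. Of 9 TALE homeodomain genes, whose proteins bind DNA together with Hox proteins, 0 had a Gli3 whole face (interval 0 to 29.9%), 4 a Gli3 MNP (44.4%, interval 18.9 to 73.3) and 6 a Hand2 MNP promoter peak (66.7%, interval 35.4 to 87.9). Over all genes the shares were 6.15%, 17% and 33.7%, and over CpG-rich genes 10.3%, 32.8% and 53.5%. Each TALE interval held the share of CpG-rich genes, while the MNP intervals lay above the shares of all genes. The 4 with Gli3 were Meis2 (163 bp), Pbx2 (222 bp), Pknox2 (434 bp) and Pknox1 (474 bp). Of 22 Polycomb and Trithorax genes, which keep Hox genes silent or active, 5 had a Gli3 whole face peak (22.7%, interval 10.1 to 43.4), 13 a Gli3 MNP peak (59.1%, interval 38.7 to 76.7) and 17 a Hand2 MNP peak (77.3%, interval 56.6 to 89.9). The whole face interval held the share of all CpG-rich genes, and the MNP intervals lay above it. They included Cbx2 (MNP, 178 bp), Ezh1 (MNP, 183 bp), Ezh2 (MNP, 157 bp) and Jarid2 (whole face, 441 bp). The Polycomb and Trithorax list was 90.9% CpG-rich, compared to 43.6% for the Hox genes, so the lists differ in base composition as well. Of 9 genes of the retinoic acid pathway and hindbrain activators of Hox genes, only Rara, a retinoic acid receptor, had Gli3 promoter peaks (642 bp in the whole face list, 449 bp in the MNP list). That is 11.1% in each Gli3 list (interval 1.99 to 43.5), near the shares of all genes, and 5 had a Hand2 MNP peak (55.6%, interval 26.7 to 81.1), near the share of CpG-rich genes.

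**Figure D2:**
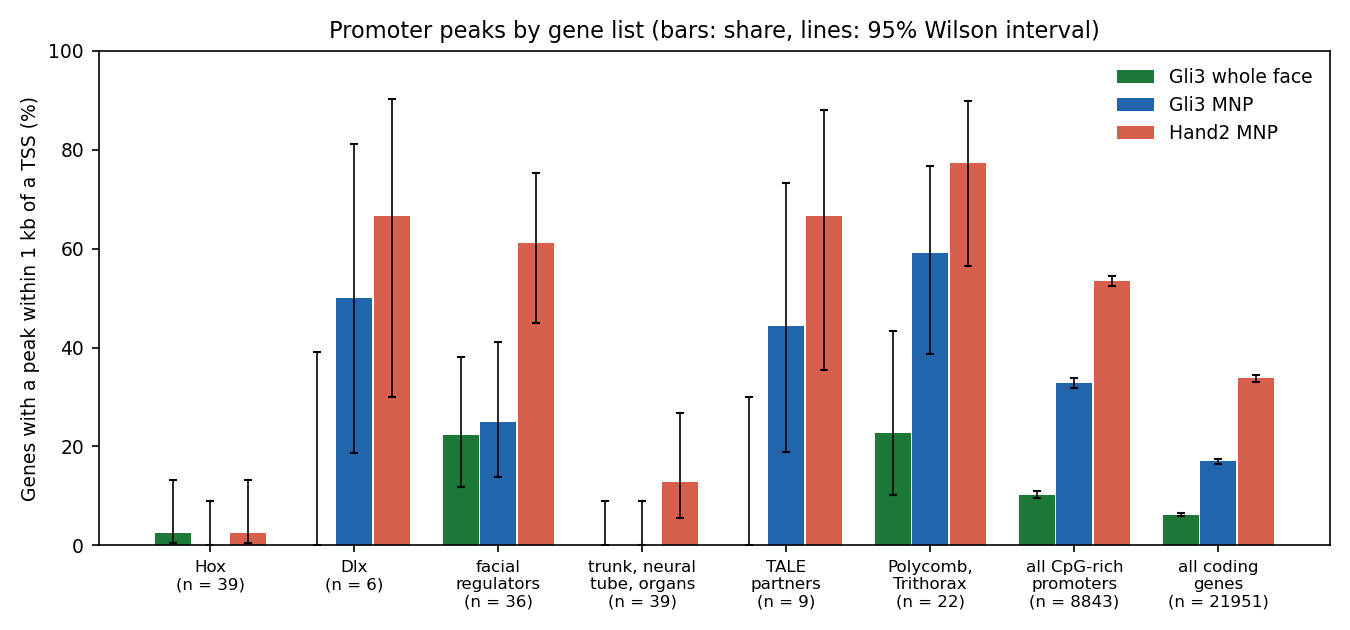
Percent of genes with a peak midpoint within 1 kb of a TSS (vertical axis) for 8 gene lists, with Hox genes at the left; bars are shares in the 3 peak lists and lines are 95% Wilson intervals. Hox genes stand at 2.56%, 0% and 2.56%, and the trunk, neural tube and organ regulators stand at 0%, 0% and 12.8%.

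How far Hox genes lay from the nearest peak, compared to other genes, differed between the lists. The median distance from a Hox TSS to the nearest Hand2 MNP peak was 45602 bp, compared to 181 bp for Dlx genes, 11375 bp for the trunk and organ regulators, 524 bp for all CpG-rich genes and 8862 bp for all protein-coding genes. For Gli3 MNP it was 129718 bp for Hox genes, compared to 4523 bp for Dlx genes, 160633 bp for the trunk and organ regulators, 38323 bp for all CpG-rich genes and 88625 bp for all protein-coding genes. For Gli3 whole face it was 148006 bp for Hox genes, compared to 9135.5 bp for Dlx genes, 101698 bp for the trunk and organ regulators, 90716 bp for all CpG-rich genes and 135518 bp for all protein-coding genes. Within 50 kb, 20 of 39 Hox genes had a Hand2 MNP peak (51.3%), compared to 6 of 6 Dlx genes, 34 of 39 trunk and organ regulators (87.2%) and 79.8% of all protein-coding genes. A Gli3 whole face peak lay within 50 kb of 11 of 39 Hox genes (28.2%), near the 27.7% of all protein-coding genes. A Gli3 MNP peak did so for 2 of 39 (5.13%), compared to 4 of 39 trunk and organ regulators (10.3%) and 38.7% of all protein-coding genes.

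The clusters differed among themselves. HoxA lay closest to Gli3 in the whole face, at 59 to 48854 bp for its 11 genes, and HoxB farthest, at 187071 to 311022 bp. Hand2 distances reached 109194 bp at Hoxa13 in HoxA, and ran from 31481 bp at Hoxb1 to 125710 bp at Hoxb9 in HoxB. In HoxC they were lowest at Hoxc8 (8923 bp) and highest at Hoxc13 (78427 bp). In HoxD the order was the other way round, with 570 bp at Hoxd13 and 59750 bp at Hoxd1, the hindbrain end.

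**Figure D3:**
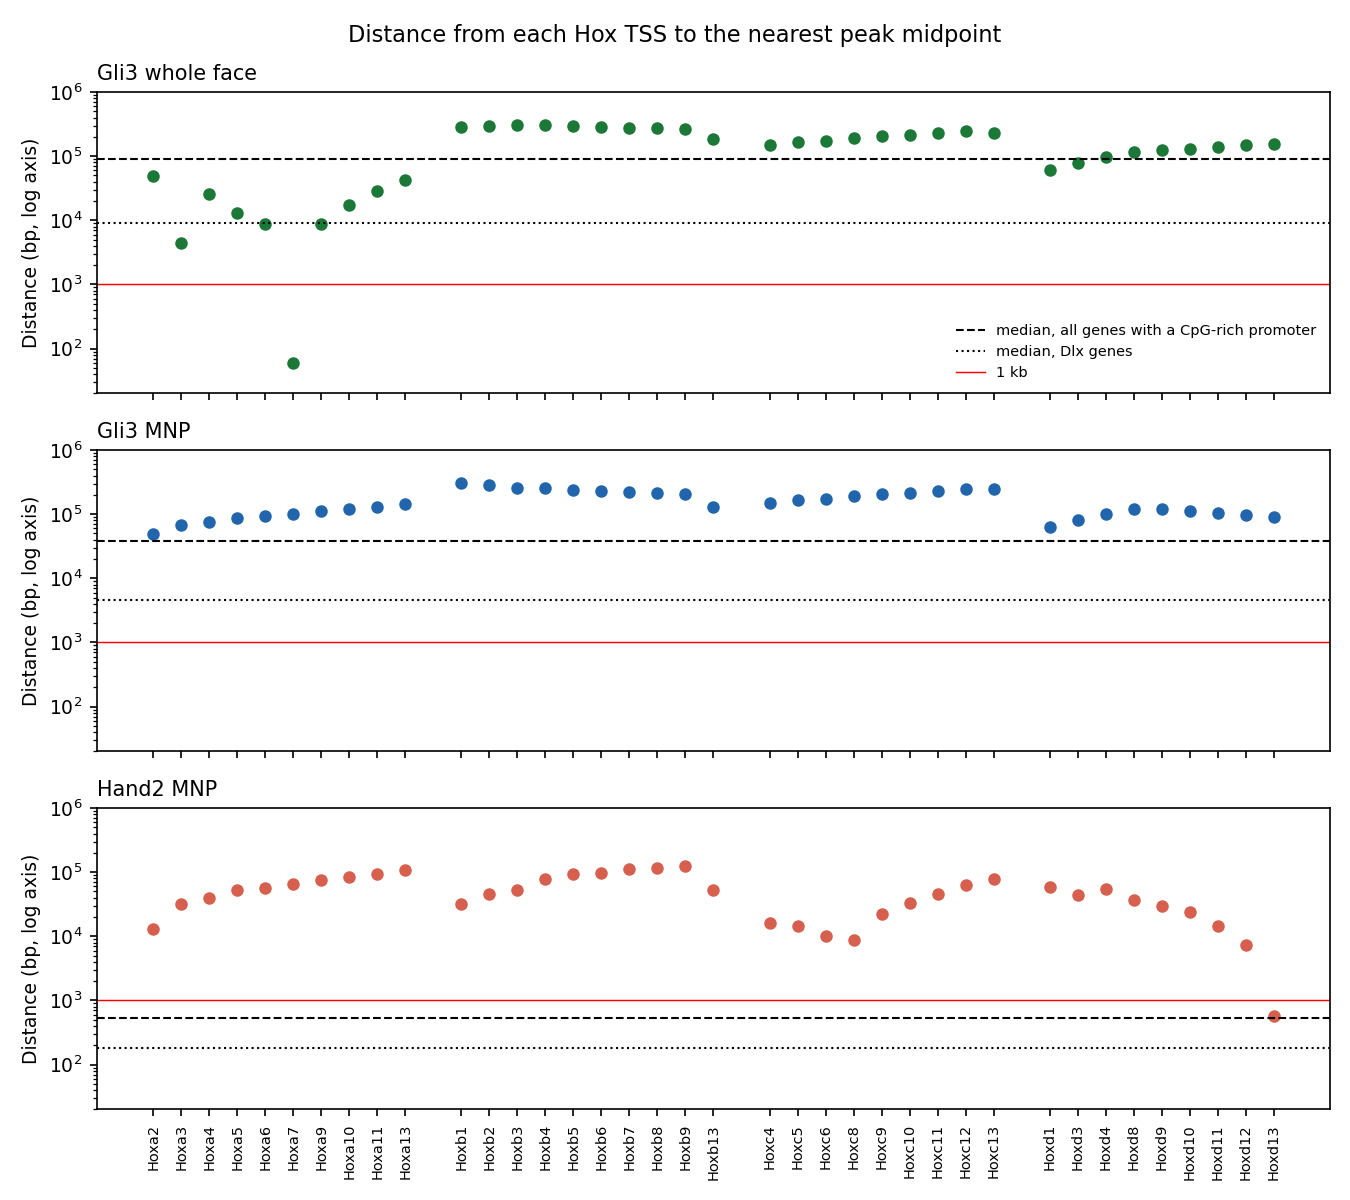
Distance in bp (log axis) from 38 Hox genes, by cluster and paralog number, to the nearest peak midpoint in each list. Dashed and dotted lines are the medians of CpG-rich genes and Dlx genes, and the red line is 1 kb. Only Hoxa7 (59 bp, Gli3 whole face) and Hoxd13 (570 bp, Hand2 MNP) fall below the red line.

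Most Hand2 MNP peaks of the windows lay outside the gene rows. Between the outer genes of the 4 clusters (492 kb) there were 1 Gli3 whole face, 0 Gli3 MNP and 1 Hand2 MNP peaks, or 0.203, 0 and 0.203 per 100 kb. The genome as a whole had 0.217, 0.205 and 2.25 per 100 kb. In the 50 kb flanks, Hand2 MNP peaks numbered 11 (2.75 per 100 kb), and from 500 to 1000 kb away the density was 4.75 per 100 kb. With counts this small, the 2 Gli3 lists cannot be told from the genome-wide density. The Hand2 MNP count between the outer genes was below every flanking bin, the lowest of which was 2.75 per 100 kb.

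The Hox windows as a whole had 0.224 (Gli3 whole face), 0.112 (Gli3 MNP) and 1.35 (Hand2 MNP) peaks per 100 kb, while the 3 Dlx windows (364 kb) had 1.65, 1.93 and 9.35. The windows of 6 other homeobox clusters had 0.570, 0.150 and 3.06 per 100 kb. They were not uniform: the Nkx2-2/Nkx2-4 window had 1 Gli3 whole face peak and neither of the other kinds.

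**Figure D4:**
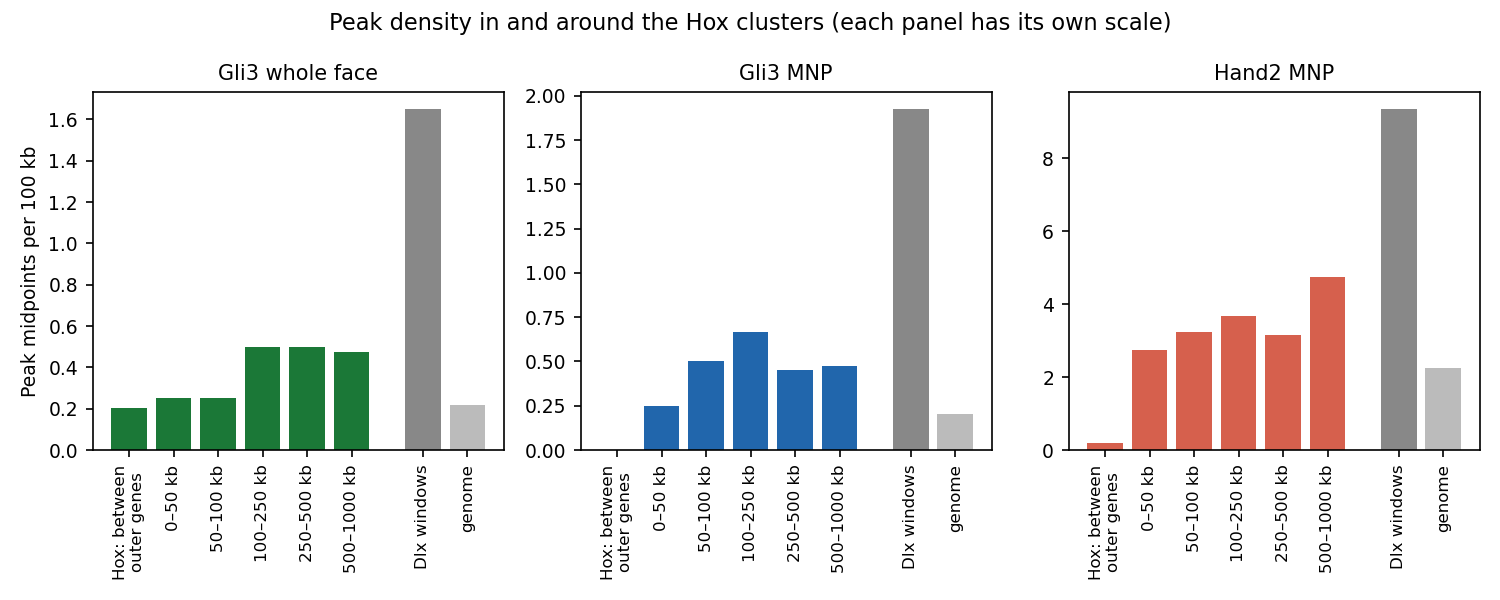
Peak midpoints per 100 kb between the outer Hox genes and in 5 distance bins around the clusters (coloured), with the Dlx windows and the genome in grey. The vertical scale differs between panels. For Hand2 MNP the value is 0.203 between the outer Hox genes and 2.75 to 4.75 in the bins around them.

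Single windows were set beside 200 kb tiles of the genome. HoxB, HoxC and HoxD (197 to 274 kb) held no Gli3 peak of either list, as did 71.9% (whole face) and 73.5% (MNP) of 13262 tiles. Of the 261 tiles with at least 5 CpG-rich promoters, 34.9% had no Gli3 whole face and 13.8% no Gli3 MNP peak. The HoxD window, with 5 CpG-rich genes, belongs beside these, as does HoxA, with 8. Each Hox window held a Hand2 MNP peak, while 20.7% of all tiles and 0.383% of the CpG-rich tiles held none. The Hand2 MNP counts of 2 in HoxA, 4 in HoxB, 4 in HoxC and 2 in HoxD compare with a median of 3 over all tiles and 7 over the CpG-rich tiles (quartiles 5 and 9).

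The Hand2 MNP peaks of the flanks lay mostly at the 3′ ends. On the 3′ side there were 9 (2 in HoxA, 4 in HoxB, 3 in HoxC) and on the 5′ side 2, both in HoxD. Within 100 kb the split was 18 to 6, and within 500 kb it was 84 to 47, and these wider spans hold the narrower ones. Within 100 kb HoxD had 3 on the 3′ side and 5 on the 5′ side, while HoxA, HoxB and HoxC had more on the 3′ side. The gene content of the sides was not compared. The 2 peaks of HoxA were 6125 and 5294 bp from the start of the antisense RNA Hotairm1. The 4 of HoxB lay 31481, 34433, 42233 and 47983 bp downstream of Hoxb1. The 3 of HoxC lay 16081, 17208 and 34005 bp downstream of Hoxc4. The upstream HoxD peak was 34801 bp from Hoxd13 and 25910 bp from Evx2, an even-skipped homologue next to the cluster. Neither Evx2 nor any other of the 63 non-Hox gene records in the windows had a peak within 1 kb of its start.

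Each cluster or most of it sat in a stretch with no Hand2 MNP peak. The stretch over HoxA was 260 kb long (chr6:52151768-52411297) and held 14 protein-coding genes: the 11 Hoxa genes, Evx1, 5730596B20Rik and Gm28308. Of these, 9 had a CpG-rich promoter, 7 of them Hoxa genes, and no other of the 59562 stretches between neighbouring Hand2 MNP peaks had as many. The next highest had 8, in 366 kb, and the 9 include Gm28308, whose record spans that of Hoxa3. The stretch over HoxD was 155 kb long with 5 CpG-rich genes, a number that 16 stretches reached. The 5 include Hoxd13, which has a Hand2 MNP promoter peak: the peak that bounds the stretch, centred 570 bp from its TSS. The stretch over HoxB was 256 kb long and held all 10 Hoxb genes and no other coding gene, 2 of them CpG-rich, and 687 stretches had as many CpG-rich genes. The HoxC genes were split by the peak in Hoxc5 and Hoxc6 into a stretch of 216 kb with 6 genes and 1 of 50.6 kb with 3. Over all stretches, 87.7% of which held no coding gene, the median was 16.4 kb, and 2.11% were as long as that over HoxA. The median was 63.0 kb for stretches with 1 CpG-rich gene, 96.4 kb with 2, 98.4 kb with 3 and 155 kb with 5. The stretch over HoxD thus had the median length of those with as many CpG-rich genes. This count was chosen after the data had been seen, and how many reads can be mapped in each stretch was not analysed here.

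**Figure D5:**
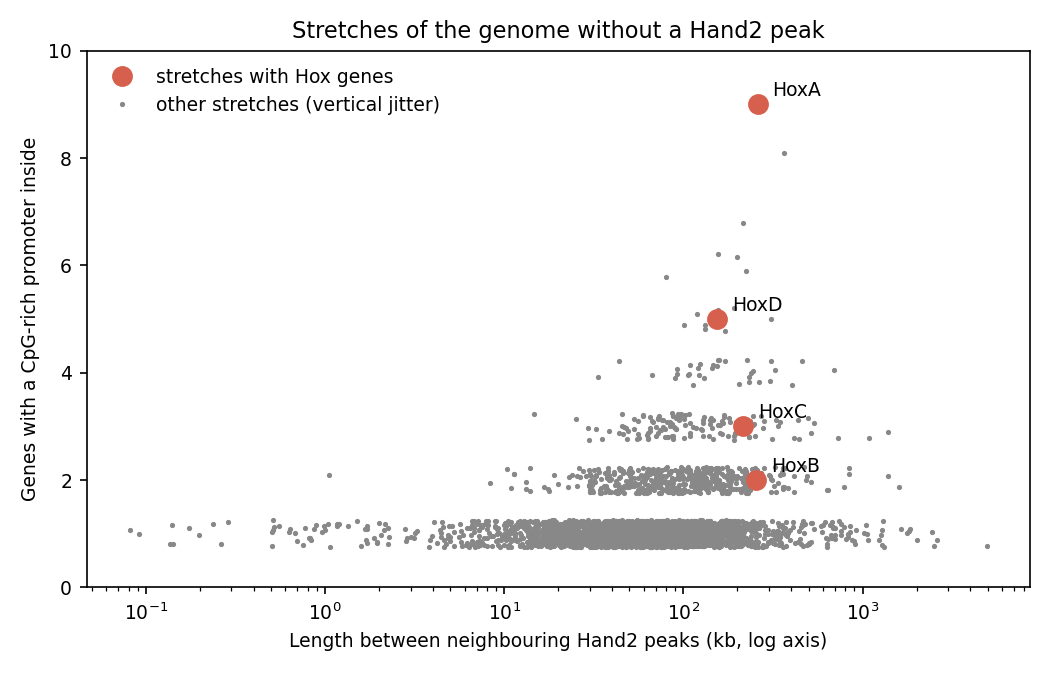
Stretches between neighbouring Hand2 MNP peaks that hold at least 1 gene with a CpG-rich promoter (3286 of them), by length in kb (log axis) and by the number of such genes. Stretches with Hox genes are large red points, others are grey with vertical jitter. HoxA is highest, with 9 genes in 260 kb.

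The names of the MNP entries carry the running number of each replicate's own peak, and these numbers followed chromosome position in 100% of neighbouring pairs. A gap in the numbers therefore counts peaks of 1 replicate that the shared list does not hold. Over the HoxB stretch neither Hand2 replicate had such a number. Over the genes of HoxA, HoxC and HoxD, replicate 1 had 0, 0 and 2 and replicate 2 had 3, 2 and 1. For Gli3 MNP, replicate 2 had 0 over all 4 clusters, while replicate 1 had 2 in HoxA, 5 in HoxB, 5 in HoxC and 4 in HoxD, over stretches of 247 to 764 kb. The Gli3 replicates differed in size, with numbers up to 19518 in replicate 1 and 6394 in replicate 2. The shared list held 5536 and 6001 of these, so unshared peaks of replicate 2 were few in the whole genome. For Hand2 MNP it held 61103 of numbers up to 75674 in replicate 1 and 60171 of up to 82372 in replicate 2. Whether the counts at the clusters differ from those elsewhere was not tested. Where in a stretch these unshared peaks lay is unknown.

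Gli motifs were present in the clusters without a peak on them. The 4 windows held 27 copies of GACCACCC (both strands), or 3.03 per 100 kb, compared to 1.72 in the genome. The Dlx windows had 2.20 and the windows of other homeobox clusters 2.13. These densities are not matched for base composition. None of the 27 lay in a Gli3 peak of either list, while 2.60% of the 45465 copies in the genome lay in a Gli3 whole face peak and 1.71% in a Gli3 MNP peak. At shares this low, 27 copies are too few for the 0 to be read as a difference. GACCTCCC had 37 copies, with 0 in a Gli3 whole face peak and 1 (2.70%) in the Gli3 MNP peak 3′ of HoxA. Its 4.15 copies per 100 kb compare with 5.23 in the Dlx windows, 1.89 around other homeobox clusters and 2.35 in the genome. In the Dlx windows 2 of 19 copies of GACCTCCC lay in a Gli3 whole face peak and 4 in a Gli3 MNP peak, and in the genome 0.593% and 0.628% did. Of the 8 copies of GACCACCC in the Dlx windows, 0 lay in a Gli3 whole face and 1 in a Gli3 MNP peak.

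Of the 27 copies of GACCACCC, 5 lay within 1 kb of a Hox TSS. How many other coding promoters hold a copy this near is not given here, so the 5 are not read as many or few. The copy not printed (chr6:52222701-52222708, plus strand) lay 850 bp upstream of a Hoxa7 TSS, 5140 bp from the midpoint of the Gli3 whole face peak at Hoxa7. The other 4 are printed 5′ to 3′ on the strand that reads GACCACCC, in capitals, with 11 flanking bases on each side. They are canonical GBMs at Hox promoters with no peak in either Gli3 list. They lie at chr6:52192206-52192213 (minus strand, 456 bp upstream of Hoxa4), chr6:52239880-52239887 (plus, 971 bp downstream of a Hoxa10 TSS), chr11:96282189-96282196 (minus, 287 bp downstream of Hoxb8) and chr2:74704698-74704705 (plus, 86 bp downstream of Hoxd8).
Hoxa4: aaccctcggagGACCACCCgaagcctggtt
Hoxa10: ccacagacgctGACCACCCattgtttccaa
Hoxb8: ataccttcgcaGACCACCCccaaagactga
Hoxd8: ctcctgggagtGACCACCCcgcctggccca

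For Hand2, CAGATG was found in 3 of the 12 window peaks (25%, interval 8.89 to 53.2), compared to 47.1% of all Hand2 MNP peaks and 50% of those farther than 1 kb from a coding TSS, both inside the interval. CANNTG, which includes CAGATG, was in 10 of 12 (83.3%), compared to 92.3% of all. The windows held 579 copies of CAGATG, 286 of them between the outer genes. In Hand2 MNP peaks lay 4 of the 579 (0.691%) and none of the 286, compared to 20 of 286 copies in the Dlx windows (6.99%) and 1.86% of all copies in the genome. CCTCC, part of GACCTCCC, was in all 3 Gli3 peaks, as in 66.5% of all Gli3 whole face and 90.2% of all Gli3 MNP peaks. The paper used this shorter form, in the absence of a canonical GBM, to sort overlapping Gli3 and Hand2 peaks as divergent.

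None of the 3 Gli3 peaks in the Hox windows overlapped a Hand2 MNP peak, while 47.6% of all Gli3 whole face and 61.4% of all Gli3 MNP peaks did. With 2 and 1 peaks, the Wilson intervals reach 65.8% and 79.3%, so a difference from the lists was not detectable. The Gli3 whole face peaks were 203 and 221 bp wide (list median 222 bp), and the Gli3 MNP peak was 284 bp wide (list median 577 bp). The 12 Hand2 MNP peaks had a median width of 447.5 bp, compared to 451 bp for the list.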

How the data were processed

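ChIP-seq peaks of Gli3 (whole face, MNP) and Hand2 (MNP) at E11.5 were analysed as deposited. The authors mapped reads to mm10 with bwa and merged replicates with bedtools. The submitters' processing notes also name HOMER, without versions. MACS is named in the study's supplement for pooled MNP replicates, and the caller of the whole face peaks was not given in the sources used here. The deposited values are start and end positions, with no height or score. Starts were converted to count from 1. The label that calls the material polyA RNA was set aside.

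Promoters were taken from all protein-coding transcripts of GENCODE vM21, and sequence from GRCm38. A peak was assigned by its midpoint. Motifs were exact letters on both strands. Each group is 1 merged list, so shares have 95% Wilson intervals and no test was run. Hox and Dlx genes were named, and from other lists the first 4 by alphabet with a Gli3 promoter peak. A few items are not reported here. The counts by side of a cluster, of motif copies in the windows and of replicate peak numbers were added after seeing the data. The members and lists were chosen with earlier results of these data known. Programs were tested on simulated data. Python 3.11.15, numpy 2.4.6, pandas 2.3.3, scipy 1.17.1 and matplotlib 3.10.9 were used. Alternatives were other promoter distances (500 bp, 5 kb), TSS definitions, window extensions (0 or 100 kb), peak widths, overlap rules and CpG thresholds. The 3 peaks on the mitochondrial genome were left out of sequence counts.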

Additional observations from a re-analysis of the deposited data

How the results depend on the processing

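Few peaks are involved, so single peaks decide the counts. The number of Hox genes with a Gli3 whole face promoter peak was 1, and became 2 within 5 kb (Hoxa3 joins Hoxa7), 0 with the outermost 5′ end of each gene only and 0 with peaks at least as wide as their list's median. For Gli3 MNP it stayed at 0 under every alternative tried. For Hand2 MNP it was 1, and became 0 within 500 bp, 0 with wide peaks and 2 with the starts of all transcripts (Hoxc6 joins Hoxd13), an alternative chosen after seeing the data. Peaks in the windows numbered 1 (Gli3 whole face), 0 (Gli3 MNP) and 1 (Hand2 MNP) with no extension. Within 100 kb they numbered 3 (Gli3 MNP) and 25 (Hand2 MNP). With wide peaks they numbered 0, 0 and 6. Under the looser CpG rule (GC of at least 50%, ratio of at least 0.6), CpG-rich genes had a Gli3 MNP peak in 29.0% and a Hand2 MNP peak in 51.1%. Over the main counts and shares, 26 alternatives left a count within 1.5 times or a share within its interval, and 14 did not.

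No paired analysis was possible because each group is 1 merged list. Peak heights, reads per sample and mappability were not analysed here, so a weak site cannot be told from an absent one.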
